A study of Drosophila melanogaster with 8 samples.

Results

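Pol II occupancy was examined at 7 genes of the fly Nrf2 axis, the redox-sensing genes cnc, Keap1 and maf-S and the thiol redox genes Gclc, Gclm, Trxr1 and Trx2. They were chosen by name and function, and all 7 are among the 14004 genes whose signal was measured. Occupancy was profiled by targeted DamID, in which a bacterial DNA adenine methyltransferase (Dam), alone or fused to Pol II, marks GATC sites in the cells that express it. The 8 libraries form 4 groups of 2 replicates. Flies received sucrose alone (Suc), or a Pe bacteria solution in sucrose, over the last 16 hours before dissection, and each feeding has Dam and Dam-Pol II libraries. A fused and an unfused library were combined by the authors into 1 profile of ratios per GATC fragment, so that 2 Suc and 2 Pe profiles were compared.

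All flies were w- and carried dSRF-GAL4, UAS-CD8GFP and tub-GAL80ts, with UAS-LT3-Dam or UAS-LT3-Dam-Pol II as the Dam transgene. They were kept at 18 °C, aged 7 days as adults and moved to 29 °C for 24 hours, which inactivates GAL80ts and turns the transgene on. Pe-fed guts are labelled as damaged. The labels name terminal tracheal cells, the tips of the airways that reach the gut, as the cells profiled, but DNA came from 60 whole midguts per condition and replicate, so any other cell that expressed the driver would also contribute. Pol II signal per cell and the number of labelled cells cannot be told apart in such bulk material. A gene's value is the mean log2 Dam-Pol II/Dam ratio across the fragments that overlap it, weighted by overlap length. It is a level per base. A long gene with signal in local peaks can thus have a lower value than a short gene with equal peaks.

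In the Keap1-Nrf2 system, Keap1 holds the bZIP transcription factor CncC, the long protein of cnc and the fly counterpart of Nrf2, and presents it to a Cul3 ubiquitin ligase. Oxidants and electrophiles modify Keap1 and release CncC, which pairs with the small Maf protein encoded by maf-S on antioxidant response elements and activates detoxification and redox genes. Gclc and Gclm form glutamate-cysteine ligase, the rate-limiting enzyme of glutathione synthesis. Flies have no glutathione reductase, and thioredoxin, reduced by thioredoxin reductase, keeps glutathione reduced. In the fly gut, CncC signalling is known to act in stem cell proliferation and in tolerance of oxidative stress.

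The profiles differed in range. The 95th percentile of gene values was 1.33 in Suc replicate 1, 2.06 in Suc replicate 2, 1.24 in Pe replicate 1 and 1.48 in Pe replicate 2. Replicates did not always agree best with each other. Across genes Pe replicate 1 had a Pearson r of 0.833 with Pe replicate 2, but of 0.918 and 0.926 with the Suc profiles. The Suc profiles had r = 0.901 with each other, and Pe replicate 2 had 0.745 and 0.829 with them. Of 9 tracheal markers, 4 were called above 0 in Suc and 1 in Pe, and of 12 enterocyte markers, the digestive and identity genes of absorptive gut cells, 8 were called in Suc and 2 in Pe. Of the markers of other cells, 2 of 6 for stem cells and enteroblasts and 3 of 6 for visceral muscle were called in Suc, and 0 of 8 enteroendocrine, 0 of 4 haemocyte and 0 of 6 fat body markers. None of these last 5 lists had a called marker in Pe. Of all 14004 genes 21.2% were called in Suc and 7.49% in Pe. For bs, the fly SRF gene that gives the driver its name, the values stood at 0.84 and 1.13 in Suc and at 0.55 and 0.26 in Pe, and bs was called in Suc and not in Pe. It was named after its values were seen.

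The first comparison asks whether the 7 genes carried Pol II signal in each condition. The 4 thiol redox genes and maf-S stood above 92.4% or more of all genes in each profile, while cnc and Keap1 stood above 51.6% to 78.5%. In a one-sided limma test of the mean against 0 with Benjamini-Hochberg adjustment over all genes, cnc, maf-S, Gclc, Gclm, Trxr1 and Trx2 were called in Suc and in Pe, and Keap1 in neither. The background was 21.2% of 14004 genes called in Suc and 7.49% in Pe. Adjusted limma p-values of the 6 called genes ran from 0.0214 at Trx2 and maf-S to 0.0271 at cnc in Suc, and from 0.0458 to 0.0487 at Gclm in Pe, just under the threshold of 0.05. Without Pe replicate 1 or without Pe replicate 2, 0 of the 7 genes and 0 of all genes were called in either condition. Without Suc replicate 2, cnc and Trxr1 lost their call in Suc, and fewer of all genes were called. Without Suc replicate 1 more were called in Suc, both of the 7 and of all genes. With the median of the fragments as the gene value 4 were called in Suc and 0 in Pe, beside 1010 and 0 of 13802 genes. With fragments that overlap a single gene, 4 of the 6 genes that could be tested were called in Suc and 0 in Pe. Over all genes 2024 and 101 of 11014 were.

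**Figure D1:**
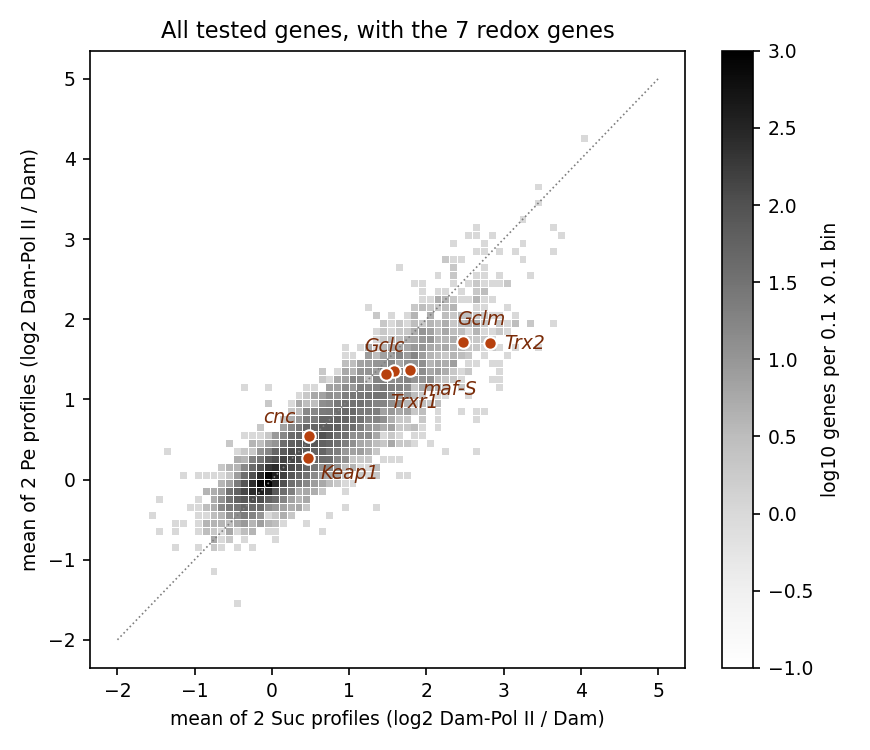
Mean log2 ratio of the 2 Suc profiles (x axis) against that of the 2 Pe profiles (y axis) for all 14004 genes as grey bins and for the 7 redox genes as red points, with equality as a dotted line. Trx2 and Gclm lie toward the right of the cloud, at 2.82 and 2.47 in Suc and 1.70 and 1.72 in Pe, and cnc and Keap1 lie nearest its dense part.

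The order of the levels in Suc was Trx2 (2.82 ± 0.39, SD, n = 2), Gclm (2.47 ± 0.63), maf-S (1.79 ± 0.21), Gclc (1.58 ± 0.42), Trxr1 (1.48 ± 0.43), cnc (0.48 ± 0.18) and Keap1 (0.47 ± 0.49). The profiles of Gclm and maf-S did not overlap, nor did those of Trxr1 and cnc, whereas the other neighbours in this order overlapped. In Pe the order was Gclm (1.72 ± 0.35), Trx2 (1.70 ± 0.21), maf-S (1.36, both profiles alike to 2 decimals), Gclc (1.35 ± 0.21), Trxr1 (1.31 ± 0.24), cnc (0.54 ± 0.03) and Keap1 (0.27 ± 0.23). Here the profiles of Trx2 and maf-S, of Trxr1 and cnc, and of cnc and Keap1 did not overlap. Over all 14004 genes and 4 profiles the median value was 0.05. Both orders are of means over whole genes, not of peak heights. The highest stretch of cnc, partly shared with Irk1 and CG46310, stood at 2.86 and 3.15 in Suc and 2.90 and 3.73 in Pe.

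**Figure D2:**
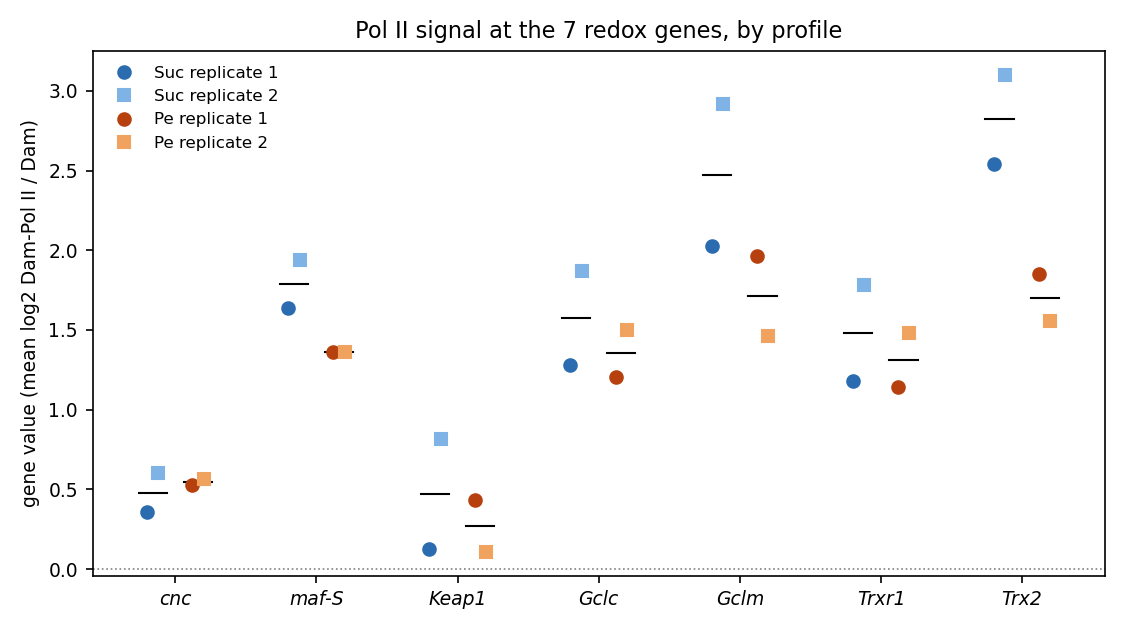
Gene values (mean log2 Dam-Pol II/Dam ratio, y axis) of the 7 genes in each of the 2 Suc profiles (blue) and the 2 Pe profiles (orange), with the condition mean as a black line. At Trx2, Gclm and maf-S both Pe profiles lie below both Suc profiles, and at the other 4 genes the conditions overlap.

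The second comparison asks how the signal at these genes differed with the bacteria in the food. None of the 7 passed the test, nor did any other gene. By limma, two-sided and Benjamini-Hochberg adjusted, Pe was higher at 0 of 14004 genes and lower at 0 (0% in each direction, smallest adjusted p = 0.897). At an unadjusted p under 0.05 it was higher at 232 (1.66%) and lower at 318 (2.27%). Trx2 and maf-S were the members among the 318. With 2 profiles a condition, an exact two-sided permutation test of a single gene cannot go below p = 0.333. At 3 of the 7 genes (Trx2, Gclm and maf-S) both Pe profiles lay below both Suc profiles, against a background of 14% of all genes, and at 0 of the 7 they lay above, against 23%.

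The difference of means was negative at 6 of 7 members, with a median of -0.22, while 45.3% of all genes had a negative difference and their median was 0.02. This count rests on Suc replicate 2, the profile with the widest range. Its replicate number comes from the labels, whereas the track inside its file carries the number 3. Without it 3 of 7 members had a negative difference, with a median of 0.07, and 29.8% of all genes did, with a median of 0.08. With quantile-normalized profiles, and with profiles scaled by median and MAD, 4 of 7 were negative, and cnc, Gclc and Trxr1 were positive. Of all genes 45.3% and 51.9% were negative in these 2 settings.

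Among the regulators, cnc, which encodes the transcription factor, was measured over 126 fragments on chr3R:23185580-23226711. Its values were 0.36 and 0.60 in the Suc profiles and 0.52 and 0.56 in the Pe profiles. The Pe profiles lay between the Suc profiles, and the difference was 0.06 (SE 0.10, 95% interval -0.25 to 0.38, limma adjusted p = 0.935). The low mean covered separate peaks and long stretches near 0. In all 4 profiles 16 of its 126 fragments, 15.9% of its length, had a ratio above 1, against 4.55% of all fragments with a value. They lay in 6 runs of neighbouring fragments.

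The highest run of cnc stood at its lower-coordinate end, from -649 to 597 bases relative to that end, at 2.86 and 3.15 in Suc and 2.90 and 3.73 in Pe. Its first fragment is shared with Irk1, a potassium channel gene, and CG46310, so signal there cannot be assigned to 1 gene. A second group of runs, from 4113 to 5723 bases into the gene, overlapped no other gene and stood higher in Suc replicate 2 (2.96 in both of its runs) than in the other profiles (1.20 to 1.87). A run from 29782 to 30958 bases stood at 1.94 and 1.98 in Suc and 1.77 and 2.53 in Pe. The strand and exons of cnc are not used here, so these runs were not tied to the start sites of its isoforms.

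Over long stretches between these peaks the signal of cnc was near or below 0, but not over all of them. A fragment of 2549 bases, 34929 bases into the gene, had 0.22 and 0.41 in Suc and 0.59 and 0.86 in Pe. With the gene divided into 3 equal parts, the middle one had means of -0.16 in Suc and 0.06 in Pe, against 0.62 and 0.62 in the lower-coordinate part and 0.99 and 0.95 in the upper one. The middle part holds the nested gene fzo, a mitochondrial fusion factor of the male germ line, whose 11 fragments had a mean of -0.18 in Suc and -0.14 in Pe. Over all of cnc, the Pe profiles exceeded both Suc values at 25 of 126 fragments and were under both at 13, against 25.8% and 12.2% of all fragments. Both shares are near the background.

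Keap1, the Cul3 adaptor that targets CncC, was measured over 23 fragments on chr3R:17073942-17079945. It stood at 0.13 and 0.82 in Suc and at 0.43 and 0.11 in Pe. The conditions overlapped, since the lowest value was a Pe profile and the next lowest a Suc profile, and the difference was -0.20 (SE 0.30, 95% interval -1.11 to 0.70, limma adjusted p = 0.931). The signal stood mainly in the upper-coordinate part of the gene. That part, 1 of 3 equal ones, had means of 1.63 in Suc and 0.99 in Pe, while the lower and middle parts lay at -0.15 and -0.06 in Suc and at -0.17 and -0.01 in Pe.

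The highest fragment of Keap1, only 32 bases long and 4087 bases into the gene, had ratios of 1.71 and 3.46 in Suc and 0.86 and 0.68 in Pe. Both Pe profiles lay below both Suc profiles at this fragment, and its neighbour of 581 bases had 1.53 and 3.17 in Suc and 1.07 and 0.46 in Pe. This was the case at 3 of the 23 fragments, and the reverse at 3, where 12.2% and 25.8% of all fragments were below and above. No fragment of Keap1 was above 1 in all 4 profiles.

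The small Maf gene maf-S, whose product is the DNA-binding partner of CncC, is short (693 bases, chr2R:20640976-20641668) and rests on 3 fragments. Its values were 1.64 and 1.94 in Suc and 1.36 and 1.36 in Pe. Both Pe profiles lay below both Suc profiles, and the difference was -0.43 (SE 0.14, 95% interval -0.84 to -0.02, limma adjusted p = 0.897). The fragments of the gene did not all show it. The fragment at the upper-coordinate end, which covers 377 bases or 54.4% of maf-S, had ratios of 1.27 and 1.50 in Suc and 0.36 and 0.45 in Pe. It also reaches the edge of CG11110, the next gene toward higher coordinates, which does not overlap maf-S itself.

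The other 2 fragments of maf-S had means of 2.08 and 2.46 in Suc and 2.56 and 2.45 in Pe. They overlapped between the conditions, with a difference of 0.23. CG11110 itself had a mean of 1.26 in Suc and 0.55 in Pe, and its 4 fragments outside maf-S stood at 1.36 and 1.16 in Suc and 0.80 and 0.32 in Pe. Both Pe profiles thus lay below both Suc profiles over the upper-coordinate part of maf-S and over CG11110, and not over the lower-coordinate part of maf-S. With the median of the fragments the difference at maf-S was 0.05.

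**Figure D3:**
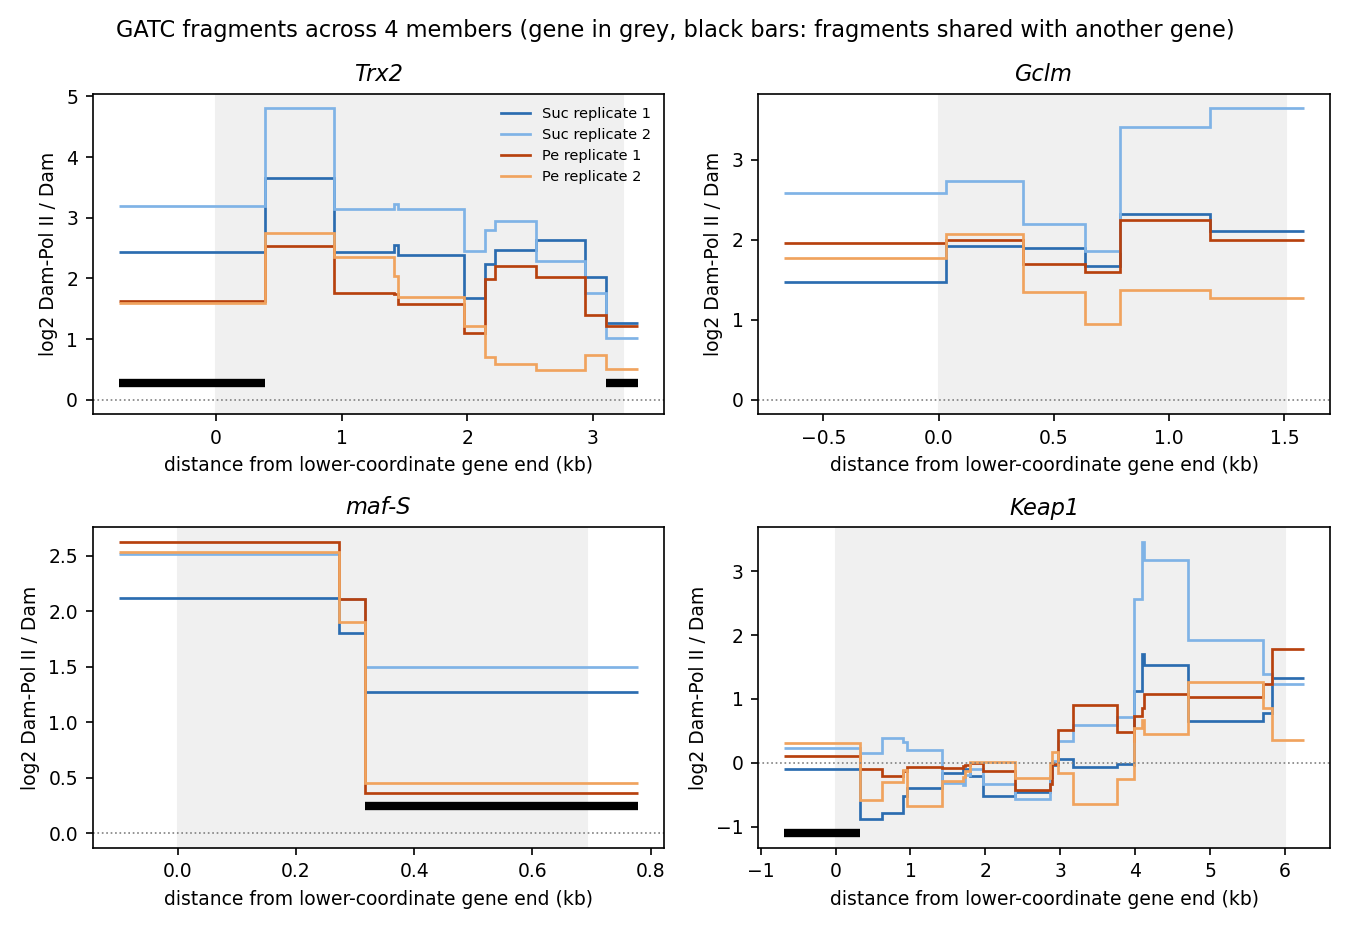
Log2 Dam-Pol II/Dam ratio (y axis) of each GATC fragment across Trx2, Gclm, maf-S and Keap1, by distance from the lower-coordinate gene end in kb (x axis), for the 2 Suc (blue) and 2 Pe (orange) profiles. Grey marks the gene and black bars the fragments shared with another gene; at Trx2 both Pe profiles lie below both Suc profiles at 10 of 11 fragments, and at maf-S at the upper-coordinate fragment only.

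Of the enzymes of glutathione synthesis, Gclc, the catalytic subunit, was measured over 47 fragments on chrX:8102181-8116147. Its values were 1.28 and 1.87 in Suc and 1.21 and 1.50 in Pe. The conditions overlapped, and the difference was -0.22 (SE 0.26, 95% interval -1.01 to 0.56, limma adjusted p = 0.921). In every profile the gene stood above 93.3% to 95.1% of the 14004 genes. The difference at Gclc turned to 0.11 with quantile-normalized profiles and to 0.02 with median and MAD scaling.

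Signal covered Gclc widely. In all 4 profiles 44 of its 47 fragments were above 0 and 20 above 1, and these 20 made up 45.7% of its length. The highest fragment, of 317 bases and 1951 bases into the gene, had ratios of 2.52 and 3.33 in Suc and 2.33 and 2.81 in Pe. The lower, middle and upper of 3 equal parts had means of 1.78, 0.92 and 2.03 in Suc and 1.45, 1.01 and 1.60 in Pe, a pattern of signal at both ends in both conditions.

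Gclm, the modifier subunit that raises the activity of Gclc, was measured over 6 fragments on chr3R:22685006-22686510, none of them shared with another gene. It stood at 2.03 and 2.92 in Suc and at 1.97 and 1.46 in Pe. Both Pe profiles lay below both Suc profiles, but the gap between Suc replicate 1 and Pe replicate 1 was small beside the spread within each condition. The difference was -0.76 (SE 0.40, 95% interval -1.96 to 0.44, limma adjusted p = 0.897), and it ranged from -1.21 when Suc replicate 1 was left out to -0.24 with quantile-normalized profiles.

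Within Gclm the difference of means was most negative toward the upper-coordinate end, although Suc replicate 1 and Pe replicate 1 were close there. In the lower, middle and upper of 3 equal parts it was -0.35, -0.75 and -1.18. In the last 2 fragments together the ratios were 2.22 and 3.53 in Suc and 2.12 and 1.32 in Pe. In the first of the 6 fragments, which overlaps the gene by 33 bases, they were 1.47 and 2.58 in Suc and 1.96 and 1.77 in Pe, where the conditions overlapped. Gclm lay above Gclc in 3 of 4 profiles, by 0.75 and 1.05 in Suc and by 0.76 in Pe replicate 1, and was level with it in Pe replicate 2 (-0.03).

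Of the thioredoxin genes, Trxr1, thioredoxin reductase, was measured over 20 fragments on chrX:8242528-8248033. Its values were 1.18 and 1.78 in Suc and 1.14 and 1.48 in Pe. The conditions overlapped, with a difference of -0.17 (SE 0.28, 95% interval -0.996 to 0.66, limma adjusted p = 0.935) that turned to 0.09 with quantile-normalized profiles and to 0.06 with median and MAD scaling. Its highest signal cannot be assigned to 1 gene. The 8 fragments shared with sni, an overlapping carbonyl reductase gene, or with ND-75, a complex I subunit gene, made up 32.9% of its length and had means of 2.90 in Suc and 2.42 in Pe, whereas its other 12 fragments had 0.78 and 0.77.

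The single-gene fragments of Trxr1 stood at 0.48 and 1.09 in Suc and at 0.52 and 1.01 in Pe, with a difference of -0.02. On these fragments Trxr1 was not called above 0 in Suc (limma adjusted p = 0.0697) or in Pe (limma adjusted p = 0.0932). The highest fragment, shared with sni, had ratios of 3.14 and 3.81 in Suc and 3.18 and 3.53 in Pe. Another fragment shared with sni, of 432 bases, had 3.73 and 4.27 in Suc and 2.63 and 1.79 in Pe. The 8 shared fragments together stood at 2.61 and 3.18 in Suc and at 2.42 and 2.43 in Pe. The gene sni stood at 2.56 and 2.87 in Suc and at 2.27 and 1.92 in Pe. Both Pe profiles thus lay below both Suc profiles over the shared fragments and over sni. The upper of 3 equal parts of Trxr1 lay at 0.02 in Suc and 0.07 in Pe. The fragments of sni outside Trxr1 stood at 0.95 and 0.96 in Suc and at 0.85 and 0.40 in Pe, so the shared stretch was higher than the rest of either gene in all 4 profiles.

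**Figure D4:**
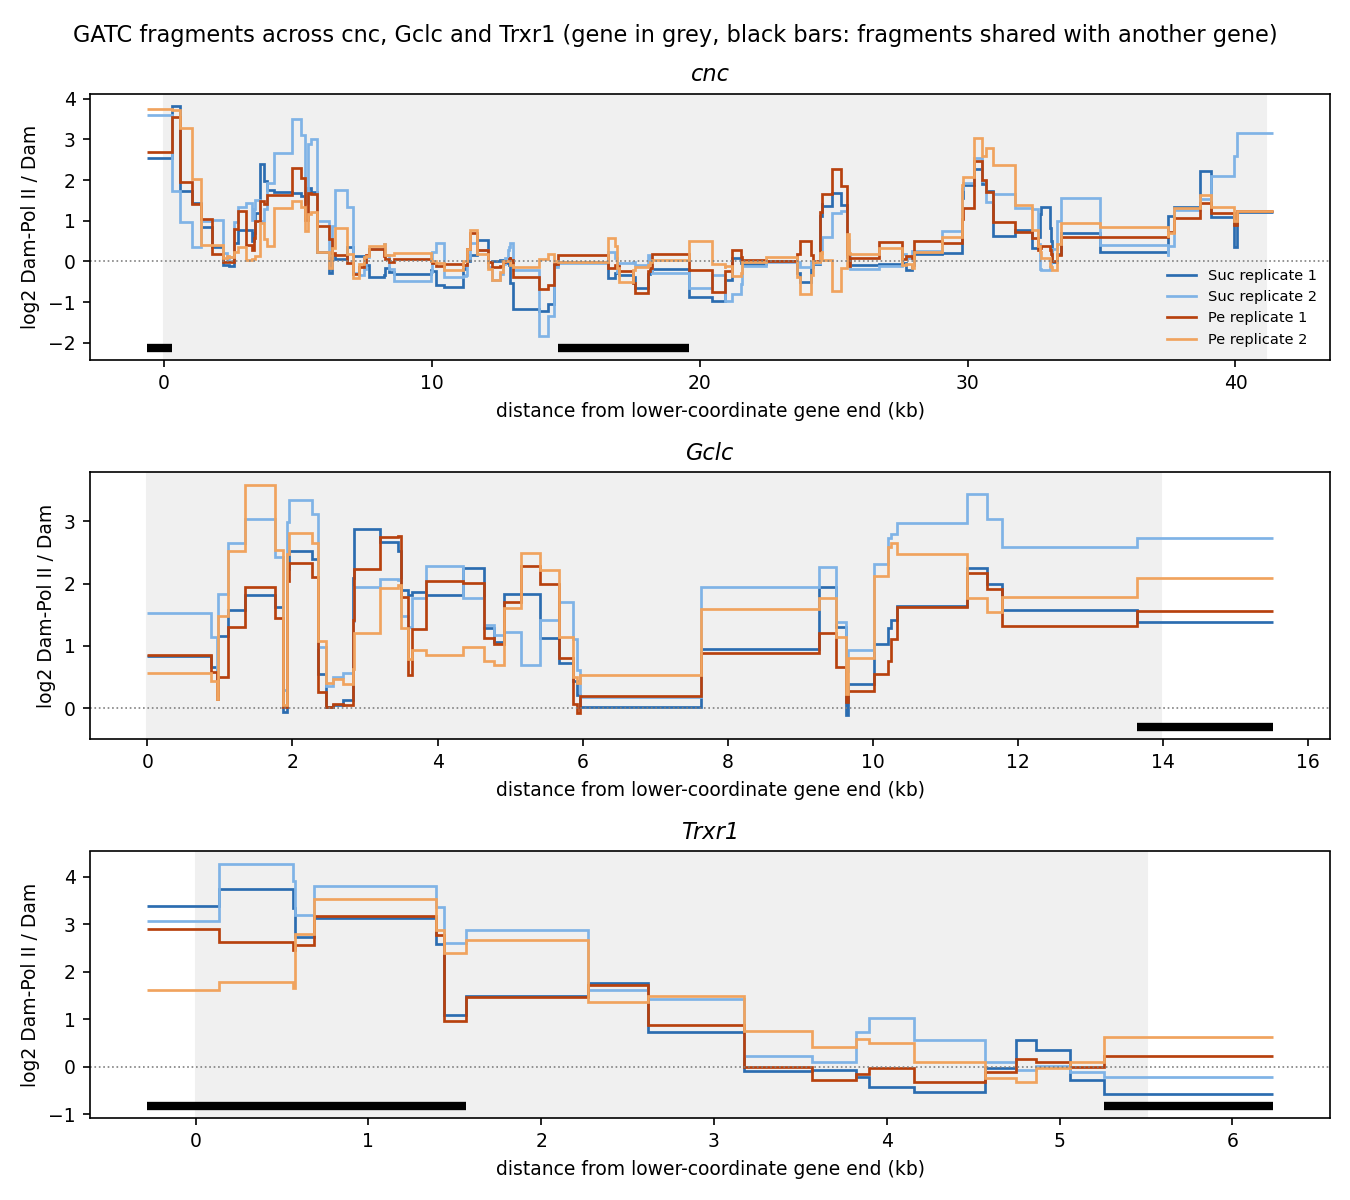
Log2 Dam-Pol II/Dam ratio (y axis) of each GATC fragment across cnc, Gclc and Trxr1, by distance from the lower-coordinate gene end in kb (x axis), for the 2 Suc (blue) and 2 Pe (orange) profiles. Grey marks the gene and black bars the fragments shared with another gene. Separate peaks and long stretches near 0 are seen at cnc, and the high fragments of Trxr1 are mostly shared with sni.

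Trx2, a thioredoxin that Trxr1 reduces and that in turn reduces peroxiredoxins and other protein disulfides, was measured over 11 fragments on chr2L:9613166-9616404. It stood at 2.54 and 3.10 in Suc and at 1.85 and 1.56 in Pe. Both Pe profiles lay below both Suc profiles, and the lowest Suc value exceeded the highest Pe value by more than the spread within either condition. The difference was -1.12 (SE 0.26, 95% interval -1.89 to -0.35, limma adjusted p = 0.897), at rank 79 from the lowest of 14004 differences. It did not pass the test over all genes.

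The difference at Trx2 was negative under all 14 alternatives, from -1.40 without Suc replicate 1 to -0.65 after quantile normalization, with adjusted limma p-values of 0.370 or more. Its rank within a profile does not depend on the range of that profile. Trx2 stood above 99.7% and 99.4% of genes in Suc and above 99.0% and 95.6% in Pe. It remained among the most occupied genes in both conditions.

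The lower ratios in Pe extended over most of Trx2. At 10 of its 11 fragments both Pe profiles lay below both Suc profiles, and at 0 of 11 above, against 12.2% and 25.8% of all fragments. Neighbouring fragments take reads from the same DNA molecules and the same peak, so the 10 are not independent. The highest fragment, of 543 bases and 393 bases into the gene, had ratios of 3.65 and 4.81 in Suc and 2.53 and 2.75 in Pe. At the upper-coordinate end, in the fragment shared with GlcAT-S, the ratios were 1.27 and 1.01 in Suc and 1.21 and 0.51 in Pe, and the conditions overlapped.

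No such gap was seen at the neighbours of Trx2. The 18 fragments of gcm2, a glial transcription factor gene, that lie outside Trx2 stood at -0.23 and -0.08 in Suc and at -0.12 and -0.12 in Pe. The 21 such fragments of GlcAT-S, a glucuronyltransferase gene, stood at 0.59 and 1.10 in Suc and at 0.77 and 0.74 in Pe. On the 9 fragments that belong to Trx2 alone the values were 2.62 and 3.19 in Suc and 1.91 and 1.60 in Pe, a difference of -1.15. Trx2 lay above Trxr1 in 4 of 4 profiles, by 1.37 and 1.32 in Suc and by 0.71 and 0.08 in Pe.

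The medians of the tracheal and enterocyte marker lists were also lower in both Pe profiles than in both Suc profiles. The median of the 9 tracheal markers was 0.50 and 0.78 in the Suc profiles and 0.25 and -0.19 in the Pe profiles, and at 6 of the 9 both Pe profiles lay below both Suc profiles, against 14% of all genes. The median of the 12 enterocyte markers was 0.90 and 0.94 in Suc and 0.59 and 0.37 in Pe, with 6 of the 12 below, while 4 of the 12 had a positive difference, up to 0.50. For visceral muscle the median was 0.55 and 0.39 in Suc and 0.02 and 0.48 in Pe. The part of these cell types in the values of Trx2, Gclm and maf-S was not tested.

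The genes most like Trx2 over the 4 profiles, by the root mean square difference of their log2 values and sharing no fragment with it, were Gapdh2, a glycolytic dehydrogenase gene (0.13), Pdxk, a pyridoxal kinase gene (0.14), and lncRNA:CR45217 (0.17). Gapdh2 stood at 2.41 and 3.10 in Suc and at 1.79 and 1.77 in Pe. For Gclc they were Tom20, a mitochondrial import receptor gene (0.06), CG2608 (0.07) and mRpS30, a mitochondrial ribosomal protein gene (0.07), and for Keap1 they were CG17726 (0.03), Spt-I, a serine palmitoyltransferase subunit gene (0.05), and CG12010 (0.05). The likeness is a description over 4 profiles and takes in level and pattern together.

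Another 40 genes of the pathway and of linked redox chemistry were set beside the 7, and all 40 were tested. In Suc 23 of them were called above 0 and in Pe 11, where 21.2% and 7.49% of all genes were. These calls, like those over all genes, were not stable when 1 profile was left out. With the replicate block 17 were called in Pe, beside 3292 of 14004 genes, and after quantile normalization 26, beside 4412 of 14004. Between the conditions 0 were higher and 0 lower after adjustment in limma, and 0 had an unadjusted p under 0.05. Their differences ran from -0.89 to 0.36 with a median of -0.15, and 32 of 40 were negative, against 45.3% of all genes. Both Pe profiles lay below both Suc profiles at 12 genes, against 14% of all, and above at 2, against 23%. The 2 are Prx6b and Gss1, of which the second is near 0 in every profile. Without Suc replicate 2, 17 of 40 differences were negative and the median was 0.03, beside 29.8% and 0.08 over all genes.

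Among 6 genes that regulate cnc and Keap1, 3 were called in Suc and 1 in Pe, against 21.2% and 7.49% of all genes. At all 6 the conditions overlapped, as they did at 8824 of 14004 genes. Without Suc replicate 2 fewer were called in Suc, as over all genes. In Pe 3 were called with the replicate block, beside 3292 of 14004 genes, and 5 after quantile normalization, beside 4412. Cul3, the scaffold of the ligase that Keap1 serves, stood at -0.14 and 0.31 in Suc and at 0.18 and 0.37 in Pe and was called in neither. Its level was low like that of Keap1. The autophagy receptor gene ref(2)P, a CncC target in flies whose mammalian counterpart p62 sequesters Keap1, stood at 0.79 and 1.56 in Suc and at 0.87 and 1.27 in Pe.

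Among 10 genes of glutathione synthesis and use, 7 were called in Suc and 3 in Pe, where 21.2% and 7.49% of all genes were. The difference was negative at 9 of 10, against 45.3% of all genes. Without Suc replicate 2, 4 of 10 differences were negative, against 29.8% of all genes. Fewer were called in Suc there, as over all genes. After quantile normalization 6 were called in Pe, beside 4412 of 14004 genes. GstD1, a glutathione transferase gene whose reporter is widely used as a readout of CncC activity, stood at 1.55 and 2.34 in Suc and at 1.81 and 1.95 in Pe. Its Pe profiles lay between its Suc profiles, with a difference of -0.06 (SE 0.32). The glutathione synthetase gene Gss1 was listed at 0 in all 4 profiles for 35 of its 38 fragments, and its neighbour Gss2 for 29 of 32, so neither gave a level. Both are still part of the counts of this list and of all 40 genes. GstE1, another glutathione transferase gene, and Grx1, a glutaredoxin gene, had the lowest differences of this list, -0.89 (SE 0.31) and -0.81 (SE 0.27), and were named after their values were seen.

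Among 13 genes of the thioredoxin and peroxiredoxin system, 5 were called in Suc and 4 in Pe, against 21.2% and 7.49% of all genes. Of the 13 differences 10 were negative, against 45.3% of all genes. Without Suc replicate 2, 6 of 13 differences were negative, against 29.8% of all genes. Fewer were called in Suc there, as over all genes. In Pe 7 were called with the replicate block, beside 3292 of 14004 genes, and 7 after quantile normalization, beside 4412. Prx2, the cytosolic peroxiredoxin also called Jafrac1, stood at 0.87 and 2.30 in Suc and at 1.07 and 1.76 in Pe, and the conditions overlapped. Prx3, the mitochondrial peroxiredoxin, stood at 0.76 and 1.12 in Suc and at 0.83 and -0.03 in Pe. The mitochondrial reductase gene Trxr2 lay at -0.04 and -0.03 in Suc and at -0.04 and 0.02 in Pe and was called in neither.

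Among 6 genes that supply NADPH, the electron donor of thioredoxin reductase, 4 were called in Suc and 2 in Pe. Of all genes 21.2% and 7.49% were called. All 6 differences were negative, against 45.3% of all genes, with a median of -0.38. Without Suc replicate 2 the median was -0.07 and 3 of 6 were negative, against 29.8% of all genes. After quantile normalization the median was -0.14 and 5 of 6 were negative, against 45.3% of all genes. Fewer were called in Suc without Suc replicate 2, as over all genes. In Pe 3 were called with the replicate block, beside 3292 of 14004 genes, and 5 after quantile normalization, beside 4412. Zw, glucose-6-phosphate dehydrogenase, stood at 0.37 and 1.10 in Suc and at 0.35 and 0.05 in Pe. Pgd, the next oxidative enzyme of the pentose phosphate pathway, stood at 1.58 and 2.07 in Suc and at 1.42 and 1.23 in Pe. At both genes, and at the transaldolase gene Taldo, the Pe profiles lay below the Suc profiles. These were 3 of 6, against 14% of all genes, and at 0 of 6 the Pe profiles lay above, against 23%.

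Of 5 genes that remove superoxide and peroxide, 4 were called in Suc and 1, the copper chaperone gene Ccs, in Pe. The shares of all genes called were 21.2% and 7.49%. Fewer were called in Suc without Suc replicate 2, as over all genes. After quantile normalization 3 were called in Pe, beside 4412 of 14004 genes. Sod1, the cytosolic superoxide dismutase, stood at 0.44 and 0.47 in Suc and at 0.48 and 0.14 in Pe. Cat, catalase, stood at 0.34 and 0.55 in Suc and at 0.22 and 0.11 in Pe, with a difference of -0.28 (SE 0.12). The Pe profiles of Cat lay below its Suc profiles, as they did at Sod2 and Ccs. This was so at 3 of the 5 genes, against 14% of all genes, and the reverse at 0, against 23%.

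**Figure D5:**
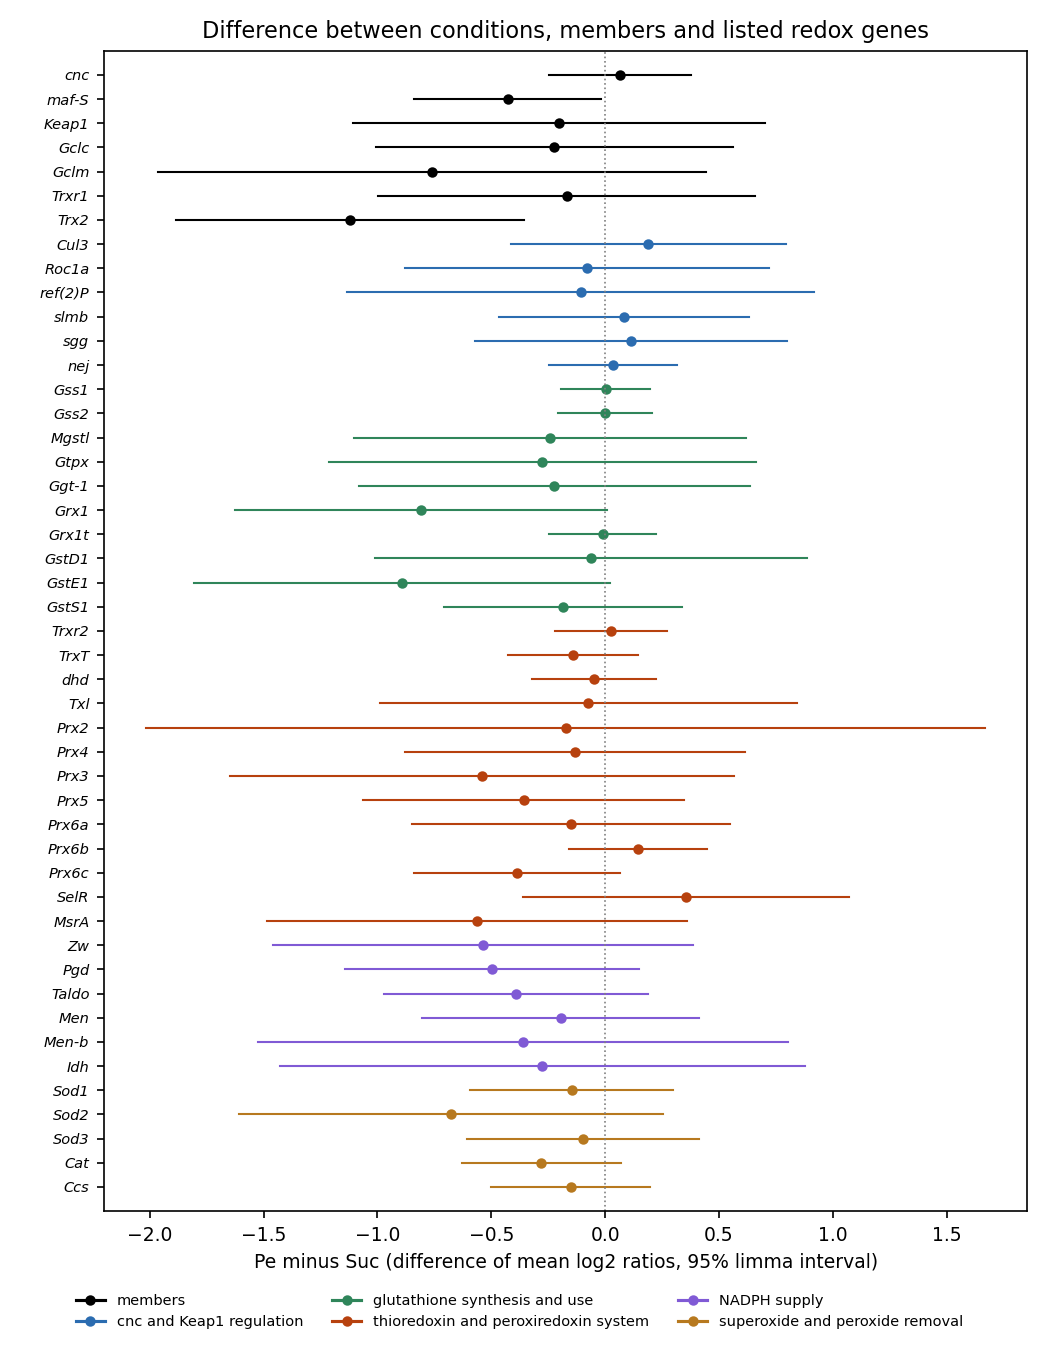
Difference of the mean log2 ratio, Pe minus Suc (x axis), with its 95% limma interval for the 7 redox genes (black) and 40 listed redox genes coloured by list (y axis). The intervals of Trx2 (-1.89 to -0.35) and maf-S (-0.84 to -0.02) exclude 0 before adjustment, and no gene passed after it.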

How the data were processed

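For each condition and replicate the authors deposited 1 profile, read here as the log2 Dam-Pol II/Dam ratio of every GATC fragment because its values lie on both sides of 0. The log base, the aligner and the scaling were not given in the sources used here. The build is BDGP6 per the submitters' processing notes. The files give ratios without counts, so depth is unknown. Precision rests on the 2 profiles of a condition, from biological replicates per the labels.

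Gene positions came from a RefSeq table of Release 6, which gives no strand, exons or sequence, so planned tests at gene starts were not made. The 28 mitochondrial fragments were left out, leaving 383654. Genes needed at least 3 fragments and a value other than 0 in some profile. Shares of fragments use the 338828 with a value other than 0 in some profile. Tests used limma 3.58.1 (R 4.3.3), with 1 spread for both conditions, trended on fragment number, and Benjamini-Hochberg adjustment over 14004 genes. Gene values were computed in Python 3.11.15 with pandas 2.3.3.

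The members and gene lists were chosen with earlier results of these data known. The text names all members, 11 fixed pathway genes, genes sharing a fragment with a member and, for Trx2, Gclc and Keap1, the 3 most similar genes. Other named genes are marked as such or stand for a count of 5 or fewer, chosen after their values were seen. Alternatives were other gene values, scalings, filters and priors, a replicate block and leaving out each profile.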

Additional observations from a re-analysis of the deposited data

How the results depend on the processing

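The count of genes differing between conditions was 0 under all 14 alternatives, and Trx2 and Gclm kept a negative difference wherever they could be tested (14 and 13). Genes called above 0 in Suc (2974) numbered 1010 with the median of fragments, 1638 with at least 10 fragments and 0 to 3943 when 1 profile was left out. Those in Pe (1049) numbered 0 with the median, 101 with fragments of a single gene, 4412 after quantile normalization, 3689 under median and MAD scaling, 293 with at least 10 fragments, 3292 with the replicate block and 0 to 3311 when 1 profile was left out. The cause was not tested. Signs turned for cnc with unweighted means (-0.022) and, leaving out 1 profile, over -0.061 to 0.19. They turned for Gclc (0.11 and 0.018) and Trxr1 (0.094 and 0.060) after quantile normalization and median and MAD scaling, and over -0.52 to 0.073 and -0.47 to 0.13 when 1 profile was left out. They also turned for Keap1 over -0.55 to 0.14, and with the median of fragments for maf-S (0.052) and for Keap1 in Pe (-0.0036). The replicate number is not labelled as a batch. Across 14004 genes the deviations of Suc replicate 1 and Pe replicate 1 from their condition means had r = 0.28, and the replicate block changed no call at the 7 genes (Trx2 difference -1.12, adjusted limma p = 0.693). Unknown depth gives no interval for a single fragment, and 1 profile left out leaves a condition with 1 profile, assumed to vary like the other. Windows at gene starts were not run, and maf-S could not be fitted with single-gene fragments, at least 10 fragments or fragments of at least 150 bases, nor Gclm with at least 10.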
